A study of Mus musculus with 12 samples.

Results

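The genes described here are those of the ribbon synapse of the inner hair cell, the contact through which the main sensory cell of the cochlea releases glutamate onto the auditory nerve. The 8 genes were chosen by name, *Otof*, *Slc17a8*, *Cabp2*, *Cacna1d*, *Cacnb2*, *Ctbp2*, *Bsn* and *Rims2*, out of the 37432 genes of the expression table. Each name was found in 1 row. Within the cochlea 3 of them, *Otof*, *Slc17a8* and *Cabp2*, are known as hair cell genes, and the other 5 are also used by neurons or by many cell types. All 8 passed the filter on low values, and 16215 genes were tested in all.

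A ribbon synapse works without action potentials. Sound bends the hair bundle, the cell depolarises, CaV1.3 calcium channels at the active zone open, and the calcium that enters makes vesicles fuse at a rate that follows the sound. Vesicles are filled with glutamate by VGLUT3, are held near the channels by an electron-dense ribbon built mainly of RIBEYE, and fuse with the help of otoferlin. In the mouse this machinery is assembled in the days around the onset of hearing, and loss of otoferlin, VGLUT3 or CaV1.3 causes deafness.

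RNA-seq was carried out on pieces of the mouse cochlea at P14 (postnatal day 14), cut into apical, middle and basal turns, from wild-type mice and from mice homozygous for 35delG in *Gjb2* (*Gjb2*35delG/35delG), the gene for the gap junction protein connexin 26 of supporting cells. Each of the 6 combinations of genotype and turn had 2 biological repeats, so that there were 12 libraries. The question was how the loss of this connexin changes the transcripts of the inner ear cells along the cochlea. The homozygous mice were males of a nearly C57BL/6J background that developed from male embryonic stem cells in tetraploid embryos, were born by cesarean section and were nursed by ICR females. The stem cells came from in vitro fertilisation between heterozygotes whose line had been backcrossed to C57BL/6J. The controls were bought wild-type males of equal age, whose strain is not given in the sources used here, so the effects of genotype and of origin cannot be told apart. How many animals, ears or stem cell lines went into each library is not given either. No batch is named in the labels.

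Levels are given as scaled FPKM, that is fragments counted per length of transcript and per number of mapped fragments, divided by a factor for each library between 0.917 and 1.06. The depth of the libraries is unknown, and their FPKM summed to between 316425 and 408162. A piece of cochlea is a mixture, and in such bulk samples fewer cells of a type and less RNA per cell cannot be told apart. Several libraries stood apart in their makeup. The summed level of 10 markers of spiral ganglion neurons was 13.9 and 871 in the wild-type basal repeats, 48.1 and 394 in the homozygous middle repeats and 3069 and 3414 in the homozygous basal repeats, against 176 to 1833 elsewhere. The 6 markers of central glia, cells that belong to the brain side of the nerve, summed to 1280.1 in wild-type middle repeat 1, to 389 in wild-type basal repeat 2 and to 430.2 and 662 in the homozygous basal repeats, but to between 1.38 and 14.8 in the others. The sum of 15 hair cell markers was lowest in wild-type middle repeat 1 (38.0) and in the homozygous basal libraries (39.9 and 52.8) and highest in the wild-type apical libraries (215 and 225). The 3 markers of the stria vascularis summed to 8.92 and 5.18 in the wild-type middle against 299 and 578 in the homozygous middle libraries, to 8.72 and 530.4 in the wild-type basal repeats and to 213 and 0.639 in the homozygous basal repeats. The 3 bone markers were highest in wild-type basal repeat 2 (2114) and homozygous middle repeat 1 (2035), against 24.9 to 735 elsewhere. Mitochondrial genes took between 7.32% and 20.6% of the FPKM, the most in wild-type middle repeat 2 (20.6%) and wild-type basal repeat 2 (17.1%). The part of these differences in makeup in the results below was not tested, and values without the libraries concerned are given beside the results that rest on them.

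*Otof*, on chromosome 5 from 30367062 to 30461932 on the minus strand (mm10, 47 exons in its longest transcript), encodes otoferlin, a large C2 domain protein of hair cells that senses calcium for vesicle fusion and for the refilling of release sites. Its scaled FPKM was 59.8 and 61.7 in the wild-type apical libraries and 23.7 and 13.9 in the homozygous ones. In the middle turn the wild-type libraries were at 9.42 and 25.2 and the homozygous ones at 14.2 and 19.3. In the basal turn the wild-type libraries were at 32.2 and 20.7 and the homozygous ones at 0.0982 and 0.109. The genotypes thus did not overlap at either end of the cochlea, where the homozygous libraries were the lower ones, whereas in the middle turn the homozygous values lay between the wild-type repeats. Across the 6 groups the wild-type apical group stood alone at the top and the homozygous basal group alone at the bottom, and the ranges of the 4 groups between them, from the wild-type basal to the homozygous middle turn, overlapped each with the next.

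*Slc17a8*, on chromosome 10 from 89574020 to 89621253 on the minus strand, encodes VGLUT3, the carrier that loads glutamate into the vesicles of inner hair cells. Its scaled FPKM was 30.8 and 31.5 in the wild-type apical libraries against 9.87 and 5.54 in the homozygous ones. It was 4.79 and 24.3 in the wild-type middle libraries against 7.62 and 11.1, and 28.2 and 4.94 in the wild-type basal libraries against 0.905 and 0.756. The genotypes did not overlap in the apical and basal turns, and they overlapped in the middle turn. Between the wild-type repeats *Slc17a8* was the least even of the 3 hair cell genes in the middle and basal turns and the most even in the apical turn. Wild-type basal repeat 2, at 4.94, lay below both homozygous apical and both homozygous middle libraries.

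*Cabp2*, on chromosome 19 from 4082488 to 4087340 on the plus strand, encodes a small calcium-binding protein that keeps the CaV1.3 channels of inner hair cells from inactivating. It stood at 21.2 and 24.2 scaled FPKM in the wild-type apical libraries against 7.63 and 7.24 in the homozygous ones. It was 4.31 and 16.7 against 11.5 and 15.9 in the middle turn, and 27.9 and 31.6 against 0.167 and 0.344 in the basal turn. As for the other hair cell genes, the homozygous libraries were lower without overlap in the apical and basal turns and lay within the wild-type range in the middle turn. Unlike *Otof* and *Slc17a8*, *Cabp2* had its highest group mean in the wild-type basal turn (29.7 ± 2.63, SD, n = 2), above the wild-type apical turn (22.7 ± 2.14).

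*Slc17a8* and *Cabp2* varied together with *Otof* over the libraries, so the stretches before their starts are shown. RefSeq gives 2 transcript starts for each of these genes. Shown are the 250 bases before the one farther upstream (GRCm38.p6, the build of mm10), read 5′ to 3′ on the strand of the gene, with each E-box (CANNTG, a motif that reads the same on both strands and is bound by basic helix-loop-helix factors such as the hair cell regulator ATOH1) in capitals. The stretch of *Slc17a8* is chr10:89621250-89621499 on the minus strand and that of *Cabp2* chr19:4082238-4082487 on the plus strand.
Slc17a8: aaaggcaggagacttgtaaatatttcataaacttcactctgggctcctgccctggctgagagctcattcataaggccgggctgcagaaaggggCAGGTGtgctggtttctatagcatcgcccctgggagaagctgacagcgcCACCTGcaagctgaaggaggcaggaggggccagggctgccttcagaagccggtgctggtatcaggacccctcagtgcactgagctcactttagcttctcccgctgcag
Cabp2: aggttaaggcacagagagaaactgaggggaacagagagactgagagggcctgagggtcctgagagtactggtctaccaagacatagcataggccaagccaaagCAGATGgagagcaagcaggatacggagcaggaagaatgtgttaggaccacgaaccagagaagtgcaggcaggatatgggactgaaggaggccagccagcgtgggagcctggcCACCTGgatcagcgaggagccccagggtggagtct
Each stretch held 2 E-boxes, and all 4 had the form CAGNTG on one of the strands. The 250 bases before the other start, chr10:89599816-89600065 for *Slc17a8* and chr19:4083269-4083518 for *Cabp2*, held 1 and 0 E-boxes. Of all 32851 promoters of the same length, 66.2% held at least 1 CANNTG and 44.8% at least 1 CAGNTG on either strand, so that such a match is common. RefSeq promoters were found for 6 of the 8 genes, all but *Otof* and *Rims2*, 11 in all, of which 8 held a CANNTG.

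**Figure D1:**
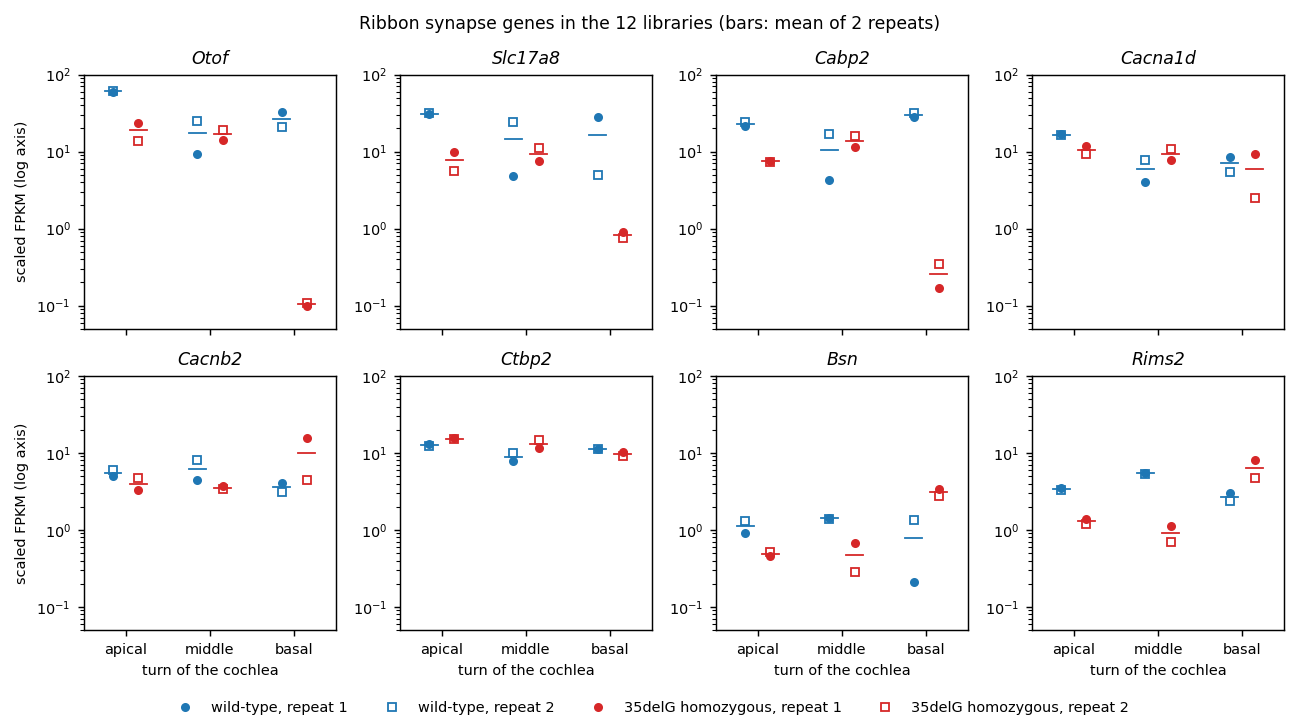
Scaled FPKM (log axis) of the 8 ribbon synapse genes in each of the 12 libraries, by turn, with wild-type in blue and 35delG homozygous in red. Symbols are the 2 repeats and bars their mean. *Otof*, *Slc17a8* and *Cabp2* were under 1 in both homozygous basal libraries, whereas the other 5 genes stayed at 2.46 or above there.

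Of the genes that are not particular to hair cells, *Cacna1d*, on chromosome 14 from 30039941 to 30491453 on the minus strand, encodes the pore of the CaV1.3 channel, which also serves pacemaker cells and neurons. In scaled FPKM it was at 17.0 and 16.3 in the wild-type apical libraries against 11.7 and 9.42 in the homozygous ones, 4.03 and 7.86 against 7.83 and 10.9 in the middle turn, and 8.58 and 5.49 against 9.36 and 2.46 in the basal turn. The genotypes were apart in the apical turn alone. The 2 homozygous basal repeats of *Cacna1d* spanned both wild-type basal values.

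*Cacnb2*, on chromosome 2 from 14604306 to 14987908 on the plus strand, encodes the auxiliary β2 subunit that brings these channels to the membrane and is shared with the heart. Its scaled FPKM was 5.02 and 6.01 against 3.26 and 4.70 in the apical turn, 4.50 and 7.98 against 3.72 and 3.36 in the middle turn, and 4.01 and 3.12 against 15.7 and 4.42 in the basal turn, wild-type first. The homozygous libraries were lower in the apical and middle turns and higher in the basal turn, in each case without overlap. Homozygous basal repeat 1 alone was at 15.7, and the other 11 libraries lay between 3.12 and 7.98.

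*Ctbp2*, on chromosome 7 from 132987578 to 133123367 on the minus strand, encodes 2 proteins. One is the widely expressed transcriptional corepressor CtBP2, and the other is RIBEYE, the core of the ribbon, which starts at a promoter inside the gene. In the annotation used here (GENCODE vM21) the RIBEYE form is the transcript Ctbp2-214, with a first exon of 1731 nt and a coding sequence of 2964 nt, against 1335 nt for Ctbp2-201. The table holds 1 value for all 20 transcripts of the gene, so the level of RIBEYE itself could not be read from it. The scaled FPKM of *Ctbp2* was 12.9 and 12.3 against 15.4 and 15.2 in the apical turn, 7.94 and 9.90 against 11.7 and 14.7 in the middle turn, and 11.4 and 11.3 against 10.2 and 9.09 in the basal turn. *Ctbp2* was the most even of the 8 genes, with a highest library at 15.4 and a lowest at 7.94, and it was the only one of the 8 that was higher in the homozygous apical libraries.

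*Bsn*, on chromosome 9 from 108096022 to 108190384 on the minus strand, encodes Bassoon, a very large scaffold that ties the ribbon to the active zone and also organises conventional synapses of neurons. Its scaled FPKM was 0.923 and 1.32 against 0.457 and 0.511 in the apical turn, 1.43 and 1.41 against 0.670 and 0.288 in the middle turn, and 0.212 and 1.36 against 3.42 and 2.74 in the basal turn. *Rims2*, on chromosome 15 from 39198332 to 39684372 on the plus strand, encodes RIM2, an active zone protein that gathers calcium channels. On the same scale it was at 3.50 and 3.34 against 1.39 and 1.20 in the apical turn, 5.50 and 5.32 against 1.13 and 0.689 in the middle turn, and 3.05 and 2.37 against 8.09 and 4.69 in the basal turn. Both scaffold genes were lower in homozygous libraries of the apical and middle turns and higher in those of the basal turn, with no overlap in any turn. Per length, *Otof* had the highest mean FPKM of the 8 over the 12 libraries (23.3) and *Bsn* the lowest (1.23). The log2(scaled FPKM + 1) scale used for the tests understates changes that involve values near or under 1. This concerns *Bsn* in most groups. It also concerns *Otof*, *Slc17a8* and *Cabp2* in the basal turn, where they were under 1 in both homozygous libraries. *Rims2* is concerned as well, at 1.39 and 1.20 in the homozygous apical and 1.13 and 0.689 in the homozygous middle libraries.

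In the apical turn the 3 hair cell genes had lower means in homozygous libraries (18.8 against 60.7 scaled FPKM for *Otof*, 7.71 against 31.1 for *Slc17a8* and 7.43 against 22.7 for *Cabp2*), but none of the 8 genes was called by limma at an adjusted p under 0.01 with a fold change over 2. Of all genes tested, 0.179% were called in this turn. The log2 fold changes, homozygous minus wild-type on the log2(scaled FPKM + 1) scale, were −1.69 for *Otof* (SE 0.42, adjusted p = 0.107), −1.93 for *Slc17a8* (SE 0.79, adjusted p = 0.270) and −1.49 for *Cabp2* (SE 0.45, adjusted p = 0.164). *Rims2* was at −0.95 (adjusted p = 0.112). These 4 genes had an unadjusted p under 0.05, as did 16.4% of all genes. *Cacna1d* (−0.62), *Cacnb2* (−0.40), *Bsn* (−0.51) and *Ctbp2* (0.26) had larger p-values. In 7 of the 8 genes the homozygous libraries were the lower ones without overlap, which held for 32.1% of all genes, and in *Ctbp2* they were the higher ones, as in 26.9% of all genes. The median of the 8 was −0.78 against −0.03 for all genes. The sum of the 15 hair cell markers was 215 and 225 in wild-type against 122 and 102 in homozygous apical libraries, and the sum of the 7 outer hair cell markers was 439 and 428 against 283 and 261. Sums of the Schwann cell and myelin markers differed less in the same libraries (2463 and 2636 in wild-type against 1552 and 2060). So did those of the supporting cell markers (82.2 and 89.7 against 64.6 and 45.1). The sums of stria, bone and neuron markers differed more. The stria markers summed to 3.07 and 4.77 in wild-type against 251 and 767 in homozygous apical libraries, the bone markers to 24.9 and 63.2 against 211 and 475, and the neuron markers to 694 and 1029.8 against 176 and 359. Their part in these values was not tested.

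In the middle turn the hair cell genes did not separate the genotypes, and the largest difference was that of *Rims2*. Its log2 fold change was −1.76 (SE 0.24, adjusted p = 0.0163), which missed the threshold of 0.01. None of the 8 genes was called, against 0.179% of all genes. *Rims2*, *Bsn* (−0.72, adjusted p = 0.184) and *Ctbp2* (0.52, adjusted p = 0.0904) had an unadjusted p under 0.05, as did 25.4% of all genes. Without overlap, *Rims2*, *Bsn* and *Cacnb2* were lower in homozygous libraries, as were 28.2% of all genes, and *Ctbp2* was higher, as were 31.3%. The log2 fold changes of the hair cell genes were 0.09 for *Otof* (95% interval −0.86 to 1.04), −0.25 for *Slc17a8* (−2.03 to 1.54) and 0.59 for *Cabp2* (−0.44 to 1.61). The interval of *Slc17a8* thus held 2-fold differences in both directions. These values rest on wild-type middle repeat 1, the library with the low hair cell sum. Without it *Otof* was at −0.58, *Slc17a8* at −1.31 and *Cabp2* at −0.28, and without repeat 2 instead they were at 0.75, 0.82 and 1.45. *Rims2* was under 1.2 in both homozygous libraries, in which neuron markers summed to 394 and 48.1 against 1632 and 1833 in the wild-type libraries. The 7 outer hair cell markers summed to 184 and 352 in the homozygous against 4.74 and 28.4 in the wild-type middle libraries. All 7 were higher in homozygous libraries and 1 was called, whereas their sums had the opposite order in the basal turn. Their part in these values was not tested.

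In the basal turn 2 of the 8 genes were called, both lower in homozygous libraries, and both hair cell genes. Of all genes 4.29% were called in this turn, and 1.76% were called as lower. *Otof* had a log2 fold change of −4.60 (SE 0.42, adjusted p = 0.00162) and *Cabp2* one of −4.61 (SE 0.45, adjusted p = 0.00206). The third hair cell gene, *Slc17a8*, was at −2.85 (SE 0.79, adjusted p = 0.0375), which did not pass. Its wild-type repeats lay far apart, and without wild-type basal repeat 2 the value was −3.995 with an adjusted p of 0.00588, the lowest among its alternatives, which reached 0.888. Without wild-type basal repeat 1 instead it was −1.70 (adjusted p = 0.192). Of the genes also found elsewhere, *Bsn* (1.27, SE 0.31, adjusted p = 0.0242), *Rims2* (0.96, SE 0.24, adjusted p = 0.0259) and *Cacnb2* (1.07, SE 0.46, adjusted p = 0.147) were higher in homozygous libraries but did not pass, and *Cacna1d* was at −0.40 (95% interval −1.48 to 0.69) and *Ctbp2* at −0.21 (−0.57 to 0.14). *Bsn* passed without wild-type basal repeat 2, the repeat with the higher neuron sum (1.75, adjusted p = 0.00274), and was at 0.79 without repeat 1 (adjusted p = 0.105). *Cacnb2* was at 0.25 without homozygous basal repeat 1 (adjusted p = 0.669) and at 1.88 without repeat 2 (adjusted p = 0.0168), and *Rims2* at 0.62 and 1.30. An unadjusted p under 0.05 was reached by 6 of the 8 genes, against 32.4% of all genes, and the genotypes did not overlap in 7 of the 8, 4 lower and 3 higher, against 27.8% and 26.2% of all genes.

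The calls of *Otof* and *Cabp2* in the basal turn were kept without any single one of the 12 libraries, with values from −4.91 to −4.30 and from −4.72 to −4.51 and adjusted p-values of at most 0.00877 and 0.00922. They were lost in 4 of the 16 other alternatives. With library weights the adjusted p-values were 0.0105 and 0.0137. With the mean level of the neuron markers as a covariate they were 0.0204 and 0.0226. With the mean level of the 15 hair cell markers as a covariate the values shrank to −2.92 and −2.41, with adjusted p-values of 0.312 and 0.216, the highest among their alternatives. In a fit of the 4 basal libraries alone both were at 0.128. In the covariate fits the slope rested on differences between repeats of a group alone. These fits cannot tell what part the makeup of the pieces had.

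**Figure D2:**
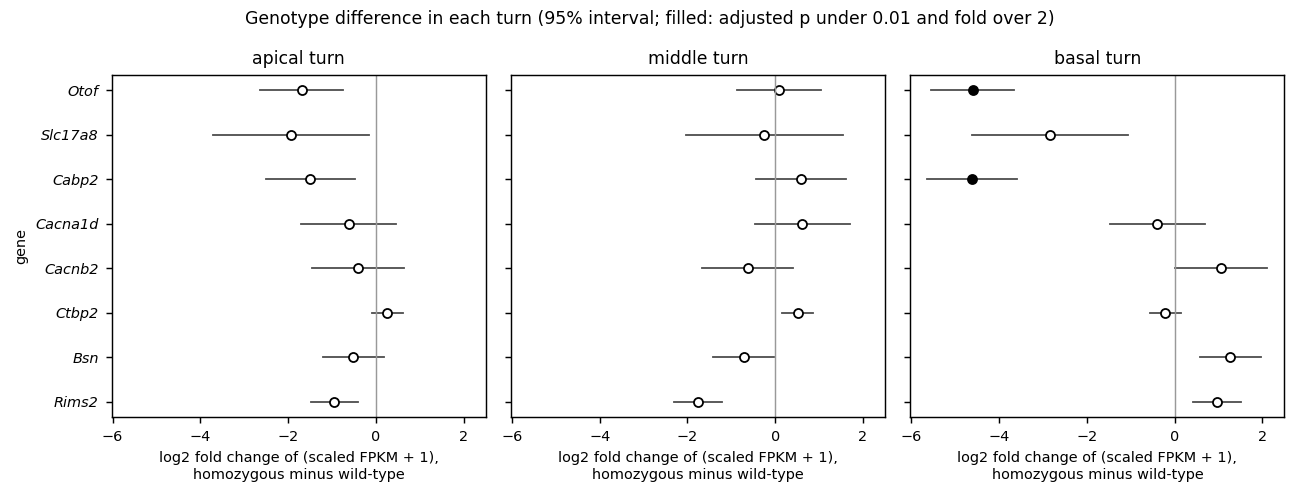
Log2 fold change of (scaled FPKM + 1), homozygous minus wild-type, of the 8 genes in each turn, with the 95% interval from limma. Filled symbols mark an adjusted p under 0.01 with a fold change over 2, which only *Otof* (−4.60) and *Cabp2* (−4.61) in the basal turn reached.

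Whether the genotype difference changed along the cochlea was tested directly. Between the basal and the middle turn it differed for 3 of the 8 genes, against 8.91% of all genes. It was more negative in the basal turn, with a log2 difference of −4.69 for *Otof* (SE 0.59, adjusted p = 0.00260) and of −5.20 for *Cabp2* (SE 0.64, adjusted p = 0.00245), and more positive for *Rims2*, with one of 2.72 (SE 0.34, adjusted p = 0.00251). *Bsn* was close to the threshold (1.99, adjusted p = 0.0132), and 7 of the 8 genes, all but *Cacna1d*, had an unadjusted p under 0.05, as did 37.7% of all genes. The values of *Otof* and *Cabp2* passed without any single library, and that of *Rims2* in 11 of 12 such fits, the exception being the one without wild-type middle repeat 1 (adjusted p = 0.0101). *Bsn* passed without wild-type basal repeat 2 (adjusted p = 0.00157) and *Cacnb2* without homozygous basal repeat 2 (adjusted p = 0.00865). With either marker covariate none of the 3 passed. The test takes middle and basal pieces to match between genotypes, which was not tested. Neuron markers summed to 1632 and 1833 in wild-type against 394 and 48.1 in homozygous middle libraries. In the basal turn they summed to 13.9 and 871 against 3069 and 3414. Outer hair cell markers summed to 4.74 and 28.4 against 184 and 352 in the middle turn. In the basal turn these were at 32.7 and 75.8 against 5.52 and 21.1.

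Between the basal and the apical turn none of the 8 differences was called, against 0.796% of all genes. *Otof* (−2.92, adjusted p = 0.0186), *Cabp2* (−3.13, adjusted p = 0.0188), *Rims2* (1.91, adjusted p = 0.0134) and *Bsn* (1.78, adjusted p = 0.0326) had an unadjusted p under 0.05, as did 28.4% of all genes. Between the middle and the apical turn limma called no gene at all, and 8.05% of genes had an unadjusted p under 0.05. Among them were *Otof* (1.77), *Cabp2* (2.07) and *Rims2* (−0.81). These 3 comparisons share libraries and are not independent of each other.

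Along the cochlea of wild-type mice none of the 8 genes was called between any pair of turns. The share of all genes called was 0.0863% between middle and apical turns, 0% between basal and middle turns and 0.0863% between basal and apical turns. *Otof* had a log2 difference of −1.90 between the middle and the apical turn (SE 0.42, adjusted p = 0.0899), and *Cacna1d* one of −1.40 (SE 0.48, adjusted p = 0.189), both with an unadjusted p under 0.05, as were *Cabp2* (−1.29) and *Ctbp2* (−0.46) and 19.9% of all genes. Between basal and middle turns *Cabp2* (1.66) and *Rims2* (−0.80) had such a p, as did 15.2% of all genes, and between basal and apical turns *Otof* (−1.20) and *Cacna1d* (−1.16), as did 20.3%.

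In homozygous mice the basal turn differed from both others. Compared with the middle turn *Otof* was at −3.99 (adjusted p = 0.00342), *Cabp2* at −3.54 (adjusted p = 0.00414) and *Rims2* at 1.92 (adjusted p = 0.00411), and 4.66% of all genes were called. Compared with the apical turn the same 3 genes were called, *Otof* at −4.12 (adjusted p = 0.00385), *Cabp2* at −2.75 (adjusted p = 0.00732) and *Rims2* at 1.65 (adjusted p = 0.00570), and 4.06% of all genes were. With a library left out, *Otof* stayed between −4.20 and −3.78 and between −4.48 and −3.76 but kept each call in 7 of 12 fits. Its first call was lost without either wild-type apical, either homozygous middle or the second homozygous basal library (adjusted p up to 0.0150), and its other call without any apical or the second homozygous basal library (up to 0.0437). *Cabp2* kept each call in 4 of 12 fits, those without a wild-type middle or basal library. *Rims2* kept the first in 5 of 12, those and the one without homozygous apical repeat 2, and the other in 4 of 12, those without a wild-type basal or homozygous middle library. Between the homozygous middle and apical turns limma called no gene. None of the 8 had an unadjusted p under 0.05 there, against 2.65% of all genes, and the value of *Otof* was −0.13 (95% interval −1.08 to 0.82).

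Averaged over the 3 turns, with each turn counted once, *Otof* was the only one of the 8 genes called, at −2.07 (SE 0.24, adjusted p = 0.00577), against 0.376% of all genes. *Cabp2* was at −1.84 (SE 0.26, adjusted p = 0.0117), *Slc17a8* at −1.67 (SE 0.45, adjusted p = 0.0927) and *Rims2* at −0.58 (SE 0.14, adjusted p = 0.0668). The other 4 lay between −0.13 and 0.19. The average combines turns of opposite sign for every one of the 8 genes but *Slc17a8*, and *Otof* itself was at 0.09 in the middle turn. The call of *Otof* was kept in 3 of 12 fits with a library left out, those without either wild-type middle library or without wild-type basal repeat 2, and *Cabp2* passed in the same 3. The value of *Otof* ran from −2.29 to −1.85 in these 12 fits, and its adjusted p over all alternatives ran from 0.00126 to 0.139.

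Set against the hair cell markers of the same library, the hair cell genes of the synapse were not a constant share. The level of *Otof*, as a percentage of the summed scaled FPKM of the 15 markers, was 27.8% and 27.4% in the wild-type apical libraries, 24.8% and 22.7% in the wild-type middle and 24.0% and 18.9% in the wild-type basal libraries. In homozygous mice it was 19.3% and 13.6% in the apical and 17.6% and 16.8% in the middle turn, below the wild-type values of the same turn in each case. In the homozygous basal libraries it was 0.246% and 0.206%. The middle turn, in which the *Otof* levels of the genotypes overlapped, was thus apart on this scale. How many of all genes would be apart on it was not worked out. *Slc17a8* was at 12.6% and 21.9% in the wild-type and at 9.46% and 9.65% in the homozygous middle libraries, and was at 2.27% and 1.43% in the homozygous basal libraries against 21.0% and 4.50% in wild-type. *Cabp2* was at 9.85% and 10.8% in the wild-type apical, 11.3% and 15.1% in the wild-type middle and 20.8% and 28.8% in the wild-type basal libraries, without overlap between these turns. In homozygous libraries it was at 6.23% and 7.08% in the apical and at 0.420% and 0.650% in the basal turn. In the homozygous middle libraries it was at 14.3% and 13.9%, between the wild-type middle values. *Cacna1d*, in contrast, lay between 5.01% and 10.6% in 10 of the 12 libraries, the homozygous apical (9.55% and 9.22%) and middle (9.71% and 9.45%) ones included, with 23.4% and 4.66% in the homozygous basal repeats.

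The markers in the homozygous basal libraries were themselves uneven. Of the 15, 9 were under 1 scaled FPKM in both libraries (*Pou4f3*, *Gfi1*, *Tmc1*, *Loxhd1*, *Xirp2*, *Grxcr1*, *Rasd2*, *Acbd7* and *Myo15*) and none was listed at 0 in both. Only *Myo7a*, *Espn*, *Lhfpl5* and *Cib2* reached 1 in both, so the shares there rest on few markers. By limma 4 of the 15 were called in the basal turn, all lower in homozygous libraries, against 4.29% of all genes. An unadjusted p under 0.05 was reached by 12, all lower, against 32.4% of all genes. *Cib2*, a stereocilia gene that is also expressed outside hair cells, made up 71.3% and 67.4% of their sum, against 14.8% to 42.1% elsewhere. Without *Cib2*, a choice made after its values were seen, *Otof* was at 0.858% and 0.630% of the remaining 14 markers in the homozygous basal libraries and between 20.9% and 42.8% in the other 10. *Slc17a8* was at 7.91% and 4.39% on this scale, and wild-type basal repeat 2, at 5.29%, lay between these values. The ratio of *Slc17a8* to *Otof* per length was 9.21 and 6.96 in the homozygous basal libraries, where both genes were under 1 scaled FPKM, and between 0.239 and 0.965 in the others. The 7 outer hair cell markers summed to 5.52 and 21.1 in the homozygous basal libraries, of which 4 were under 1 in both, to 32.7 and 75.8 in the wild-type basal and to 4.74 and 28.4 in the wild-type middle libraries.

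**Figure D3:**
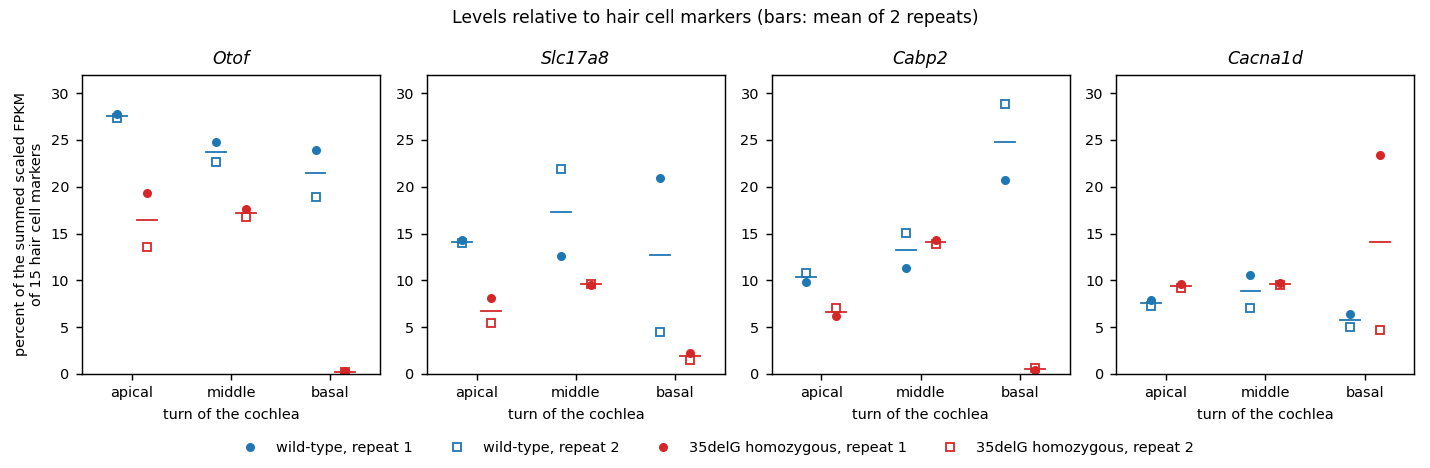
Level of *Otof*, *Slc17a8*, *Cabp2* and *Cacna1d* as a percentage of the summed scaled FPKM of 15 hair cell markers in the same library, by turn and genotype (symbols: the 2 repeats, bars: their mean). The *Otof* share was lower in homozygous than in wild-type libraries of every turn and was 0.246% and 0.206% in the homozygous basal repeats.

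Over the 12 libraries the hair cell genes went together, and so did *Bsn* and *Rims2*. On the log2(scaled FPKM + 1) scale *Otof* had a Pearson r of 0.93 with *Slc17a8* and of 0.94 with *Cabp2*, and *Bsn* one of 0.80 with *Rims2*, whereas *Otof* and *Bsn* had one of −0.71. By ranks (Spearman) *Otof* and *Bsn* were at −0.48, and *Bsn* and *Rims2* at 0.80. *Ctbp2* went against the other scaffold genes (r = −0.79 with *Rims2*, −0.67 with *Bsn*) and with *Cacna1d* (r = 0.70). *Cacna1d* itself was nearer to *Otof* (r = 0.64) than to *Rims2* (r = −0.29). The 12 points are pairs of repeats that share genotype and turn, so these values are descriptions.

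Of 14632 genes that averaged 1 scaled FPKM or more, those whose pattern over the 12 libraries was most like that of *Otof* were *Lrrc10b* (r = 0.990), *Pou4f3* (r = 0.983), a transcription factor of hair cells, and *Kncn* (r = 0.982). *Lrrc10b* was also first for *Cabp2* (r = 0.958), before *Zfx* (r = 0.955) and *Lox* (r = 0.949). For *Slc17a8* the list began with *Gm34653*, *Atp2a3* (both r = 0.976) and *Gdnf* (r = 0.975). For *Bsn* it held *Pcnx2*, *Arhgap44* (both r = 0.986) and *Rims4* (r = 0.985), and for *Rims2* it held *Ttbk1* (r = 0.985), *Zyg11b* (r = 0.978) and *Tmem181a* (r = 0.977). The nearest genes of *Ctbp2* were *Fbxw9*, *Eif2d* and *Hlf* (r from 0.945 to 0.953), those of *Cacna1d* were *Gm19221*, *Sec16a* and *Ptpn3* (0.948 to 0.961), and those of *Cacnb2* were *Fam20b*, *Mir3072* and *Gsk3b* (0.927 to 0.928).

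The summed levels set the 2 kinds of synapse genes side by side. *Otof*, *Slc17a8* and *Cabp2* together summed to 112 and 117 in the wild-type apical, 18.5 and 66.2 in the wild-type middle and 88.2 and 57.2 in the wild-type basal libraries. In homozygous libraries their sum was 41.2 and 26.7 in the apical, 33.3 and 46.3 in the middle and 1.17 and 1.21 in the basal turn. The 5 other genes kept a sum between 23.4 and 46.8 in all 12 libraries, the highest in homozygous basal repeat 1 (46.8) and one of the lowest in homozygous basal repeat 2 (23.4).

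**Figure D4:**
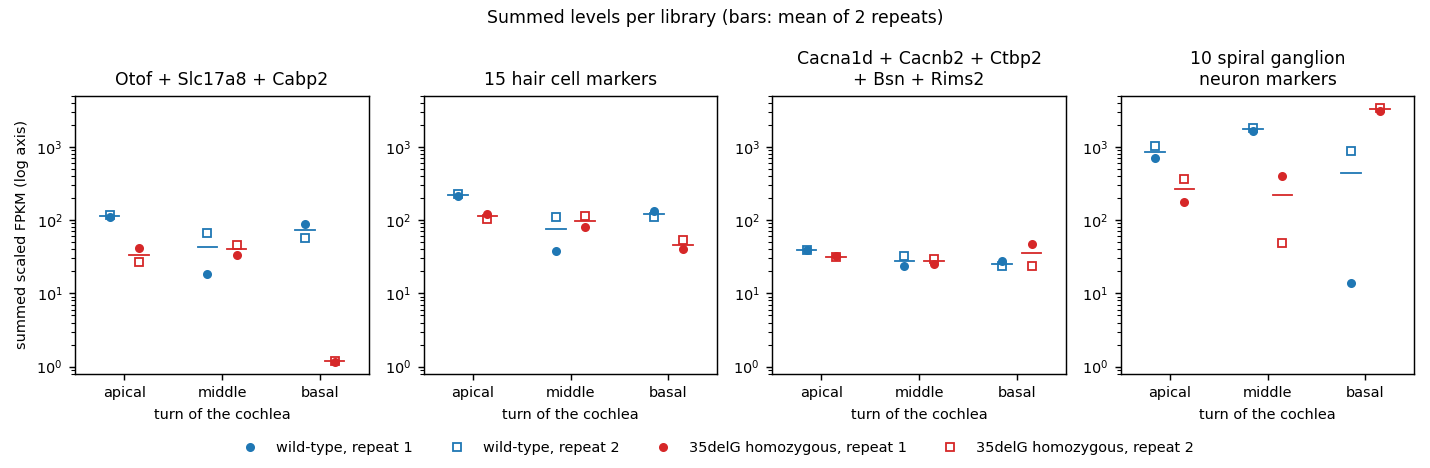
Summed scaled FPKM (log axis) per library of the 3 hair cell genes of the synapse, of 15 hair cell markers, of the 5 synapse genes also found elsewhere and of 10 spiral ganglion neuron markers. In the homozygous basal repeats the first sum was 1.17 and 1.21, the hair cell markers summed to 39.9 and 52.8 and the neuron markers to 3069 and 3414.

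Other presynaptic genes, of the ribbon or of conventional synapses, had higher values in homozygous libraries of the basal turn in 16 of 20 cases. These 20 are the tested ones of 21 such genes, all but *Cabp4*, which was under the filter. None was called in the apical or in the middle turn, where 6 and 15 of them had an unadjusted p under 0.05, against 16.4% and 25.4% of all genes. In the basal turn, where 4.29% of all genes were called, 4 of the 20 were, all higher in homozygous libraries: *Rims1* (2.25), *Unc13a* (1.91), which primes vesicles, *Cacnb4* (2.45), a calcium channel subunit, and *Sh3gl2* (2.49), which encodes endophilin A1 of vesicle uptake. The median of the 20 was 1.32, against −0.02 for all genes. Values with a library left out were not worked out for these partner genes. *Rims1*, the paralogue of *Rims2*, was at 0.157 and 1.02 scaled FPKM in the wild-type basal libraries against 8.09 and 4.79 in the homozygous ones. *Pclo*, the partner of *Bsn*, had 0.207 and 1.01 against 3.88 and 2.37 (adjusted p = 0.0238). *Slc17a7*, the vesicular glutamate carrier of spiral ganglion neurons, was at 0.0271 and 14.1 in the wild-type basal libraries against 139 and 65.7 in the homozygous ones (4.62, adjusted p = 0.0288). It went the way of *Rims1* and *Pclo* without passing, in the opposite order to *Slc17a8*, the carrier of the hair cell. *Cacna2d1* (−1.35, adjusted p = 0.0205), *Myo6* (−0.89, adjusted p = 0.0454) and *Unc13b* (−0.65, adjusted p = 0.108) were lower in homozygous basal libraries and did not pass.

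The list of 9 postsynaptic genes also holds *Nrxn3*, a neurexin gene usually placed on the presynaptic side. Of the 9, 1 was called in the basal turn, against 4.29% of all genes, *Gria4* (2.55, adjusted p = 0.00750), an AMPA receptor subunit. It was at 1.33 and 4.99 scaled FPKM in the wild-type against 25.9 and 16.8 in the homozygous libraries. The receptor subunits *Gria2* (2.04, adjusted p = 0.0186) and *Gria3* (1.82, adjusted p = 0.0169) were higher as well and did not pass, and *Dlg4*, the most abundant of the 9, was at 0.46 (adjusted p = 0.199). In the apical and middle turns none was called, 4 and 5 had an unadjusted p under 0.05, all lower, against 16.4% and 25.4% of all genes in either direction, and the medians were −0.49 and −0.72, against −0.03 and 0.04 for all genes. The neuron markers had medians of −1.61 and −3.49 in these turns and of 4.36 in the basal turn. *Bsn*, *Rims2*, *Cacnb2* and the median of the postsynaptic genes had the sign of the neuron markers in all 3 turns. *Otof*, *Slc17a8* and *Cabp2* had that of the 15 hair cell markers (−0.82, 0.44 and −1.64) except for *Slc17a8* in the middle turn. *Cacna1d*, though also found in neurons, had the hair cell sign in all 3 turns (−0.62, 0.61 and −0.40). *Ctbp2* had the sign opposite to the neuron markers in each turn (0.26, 0.52 and −0.21). Neither *Cacna1d* nor *Ctbp2* was called in any turn. Some of these signs turned with a library left out. *Cacna1d* in the basal turn was at 0.39 without homozygous basal repeat 2. In the middle turn *Otof* and *Cabp2* were at −0.58 and −0.28 without wild-type middle repeat 1. The part of nerve content in these values was not tested beyond the covariate fits given above.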

How the data were processed

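RNA-seq libraries of 12 pieces of cochlea, 2 biological repeats for each of 6 groups of genotype and turn, were analysed from the table of FPKM that the authors deposited. Per the labels and the study's methods, the authors sequenced paired ends of 150 nt, cleaned them with fastp 0.20.0, aligned them to mm10 with STAR 2.7.3a, kept reads that mapped uniquely and derived FPKM with StringTie 2.0. The version of their annotation is not given in the sources used here. 7 of the 8 gene identifiers were found with their version in GENCODE vM21, all but that of *Cacna1d*, and 3 of the 8 had the same start and end. No steps of whole reads were seen in the table, so depth and counting error are unknown. Precision was judged from the repeats alone, whose spread may be technical in part.

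Each library was scaled by the median ratio over 11552 genes that reached 1 FPKM throughout. A gene was tested if it reached 1 FPKM in 2 libraries, which left 16215. The test was that of limma 3.58.1 in R 4.3.3 on log2(scaled FPKM + 1), with 6 group means in 1 fit and a trended eBayes prior (2.78 prior degrees of freedom beside 6 residual ones). It was two-sided, with Benjamini-Hochberg adjustment over the 16215 genes. Calls needed both an adjusted p below 0.01 and more than a 2-fold change. The code was tested on simulated data. The 8 genes, the lists of partners and markers and the rules for named genes were chosen with earlier results of these data known. All 8 genes are reported, with partners that were called, abundant or paralogous, and with the 3 most similar genes of each. Promoters are RefSeq entries of GRCm38.p6, cut to the 250 bases before the start.

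Alternatives changed the pseudocount (0.1 or 0.01), the filter (none or 5 FPKM), the scaling (as deposited, equal sum or quantiles), the weights of libraries, the trend, the call (an adjusted p below 0.05, any fold change), added a fixed or random replicate block or a hair cell or neuron marker covariate, fitted the 4 libraries of 1 turn alone, or left out each library in turn. Figures were drawn with matplotlib 3.10.9.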

Additional observations from a re-analysis of the deposited data

Results flagged for a closer look

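The genotype difference of 3 of the 8 genes, homozygous minus wild-type on the log2(scaled FPKM + 1) scale, was not the same in the basal as in the middle turn by the direct test of that difference in limma. For *Otof* it was lower in the basal turn by −4.69 (adjusted p = 0.00260), with overlapping genotypes in the middle turn and both homozygous libraries below both wild-type ones in the basal turn. For *Cabp2* it was lower by −5.20 (adjusted p = 0.00245), with the same order of libraries. For *Rims2* it was higher by 2.72 (adjusted p = 0.00251), with both homozygous libraries lower in the middle turn and both higher in the basal turn. Of all genes 8.91% passed this test, and none of these 3 passed it with a hair cell or neuron marker covariate. Whether the middle and basal pieces match between genotypes was not tested.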

How the results depend on the processing

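Whether equally numbered repeats came from the same animal is not given. The correlation below cannot decide it, since repeats also differed in makeup. The correlation of the deviations of equally numbered repeats ran from −0.43 to 0.45 over 15 pairs of groups, with 4 over 0.1 and 6 under −0.1. Between turns of 1 genotype it ran from −0.41 to 0.27. A fit with a replicate block gave 0 members called in the apical and middle turns, 2 in the basal turn, 0 instead of 1 in the mean of the turns, 3 for the differences between turns and 5 instead of 6 between turns within a genotype, and a random block gave 2 in the mean of the turns. The counts of called genes in the apical turn (0) held under every alternative. In the middle turn library weights and an adjusted p under 0.05 each gave 1 instead of 0. In the basal turn, instead of 2, library weights, either marker covariate and the 4 libraries alone gave 0 and an adjusted p under 0.05 gave 4. In the mean of the turns both smaller pseudocounts, the neuron covariate and an adjusted p under 0.05 gave 2, and no filter and the hair cell covariate gave 0. For the differences between turns both covariates gave 0 and an adjusted p under 0.05 gave 8, instead of 3, and for turns within a genotype both covariates gave 0 and no filter gave 1. With each library left out the counts ran from 2 to 4 in the basal turn (4 without wild-type basal repeat 2), from 0 to 2 in the mean, from 2 to 5 for the differences (5 without that same library) and from 0 to 8 for turns within a genotype. The low counts there, 0 to 2, came without any one of the apical or homozygous libraries, and fewer libraries leave fewer residual degrees of freedom. The cause was not tested further.

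Signs turned only for values that were not called. With the hair cell covariate *Otof* was at −0.46 and *Cabp2* at −0.13 in the middle turn, *Cacna1d* at 0.17 and *Ctbp2* at 0.18 in the basal turn and *Cacna1d* at 0.073 in the mean, and with the neuron covariate *Otof* was at −0.36 in the middle and *Cacna1d* at 0.18 in the basal turn. In the mean, pseudocounts of 0.1 and 0.01 put *Cacnb2* at −0.0028 and −0.0047 and *Bsn* at −0.10 and −0.12, and quantile normalization put *Bsn* at −0.012. With a library left out the middle turn ran from −0.58 to 0.75 for *Otof*, −1.31 to 0.82 for *Slc17a8* and −0.28 to 1.45 for *Cabp2*, the basal turn from −1.19 to 0.39 for *Cacna1d*, and the mean from −0.40 to 0.13 for *Cacna1d*, −0.26 to 0.28 for *Cacnb2* and −0.15 to 0.17 for *Bsn*.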
